A study of Mus musculus with 24 samples.

Results

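T cell genes were taken as the rows of the deposited expression table whose symbol is Cd3e, Cd3d, Cd3g, Cd4, Cd8a, Cd8b1, Lef1, Tcf7 or Foxp3. These are 9 of 16118 genes, picked by symbol, and earlier results of these data were known when they were chosen. Expression was measured by sequencing poly(A) RNA from inguinal white adipose tissue, a fat depot under the skin of the mouse, with 1 library per animal and 24 animals. The series asks how this depot is remodelled in males and females when breastfeeding is prolonged. There are 6 groups of 4 animals. Males and females were taken at postnatal day 21 (p21), males and females at day 28 after separation from the mother at day 21 (standard weaning, SW), and males and females at day 28 after staying with the mother (delayed weaning, DW). The descriptions of the p21 libraries also carry the code SW, and these animals are called p21 here. The sources used here name no strain, genotype, litter or drug for any group. Nothing in them says that cells were sorted, so the T cell transcripts are those of the whole pad.

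T cells are lymphocytes that recognise antigen through a receptor whose signalling is carried by the CD3 gamma, delta and epsilon chains, the products of Cd3g, Cd3d and Cd3e. Mature T cells carry either CD4, the co-receptor of helper and regulatory cells, or CD8, the co-receptor of cytotoxic cells, made of chains encoded by Cd8a and Cd8b1. Tcf7 and Lef1 encode the transcription factors TCF1 and LEF1, which act in T cell development and in naive and memory cells, and Foxp3 encodes the factor that defines regulatory T cells (Tregs), known in adipose tissue for restraining inflammation. The mouse inguinal fat pad encloses a lymph node, where naive T cells and B cells gather, and single T cells also lie between the adipocytes.

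The CD3 genes form a cluster on chromosome 9, and the CD8 genes lie next to each other on chromosome 6. As deposited, with no build named in the table, Cd3g lies at 44880870 to 44891729 on the minus strand, Cd3d at 44893084 to 44898637 on the plus strand and Cd3e at 44910038 to 44920925 on the minus strand. Only 1354 bases separate Cd3g from Cd3d, which are transcribed away from each other, and 11400 bases separate Cd3d from Cd3e. Cd8b1 (71299772 to 71314478) and Cd8a (71350411 to 71356157) lie 35932 bases apart on chromosome 6, both on the plus strand, and Cd4 lies farther along the same chromosome (124841655 to 124865184, minus strand). Lef1 is on chromosome 3 (130904120 to 131018005), Tcf7 on chromosome 11 (52143198 to 52174158) and Foxp3 on the X chromosome (7439883 to 7461484).

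The 250 bases before the start of each CD3 gene are shown because these genes are neighbours that are expressed together, yet they separated in a pair of libraries described further on. The sequences are from RefSeq on build GRCm38.p6, written 5′ to 3′ on the gene's own strand: Cd3g at chr9:44980432-44980681 (minus), Cd3d at chr9:44981536-44981785 (plus) and Cd3e at chr9:45009612-45009861 (minus). Capitals mark matches to any of 5 motifs searched on both strands.
Cd3g: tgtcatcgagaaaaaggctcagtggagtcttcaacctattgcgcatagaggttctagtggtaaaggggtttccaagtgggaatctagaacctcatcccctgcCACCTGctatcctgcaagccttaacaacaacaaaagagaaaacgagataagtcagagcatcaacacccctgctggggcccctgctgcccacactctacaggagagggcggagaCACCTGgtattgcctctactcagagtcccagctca
Cd3d: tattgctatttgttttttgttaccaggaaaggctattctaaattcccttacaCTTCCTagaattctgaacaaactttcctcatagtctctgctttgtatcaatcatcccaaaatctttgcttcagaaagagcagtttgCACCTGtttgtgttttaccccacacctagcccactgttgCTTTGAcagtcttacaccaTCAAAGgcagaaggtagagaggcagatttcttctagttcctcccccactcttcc
Cd3e: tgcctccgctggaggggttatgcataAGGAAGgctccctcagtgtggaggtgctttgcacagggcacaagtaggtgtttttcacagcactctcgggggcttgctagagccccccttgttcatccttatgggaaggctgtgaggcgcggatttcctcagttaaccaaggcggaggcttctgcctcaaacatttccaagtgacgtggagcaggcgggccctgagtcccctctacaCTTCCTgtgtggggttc
The Cd3g window held 2 copies of the E-box CAGGTG, the core bound by E proteins, both in the reverse form CACCTG. The Cd3d window held 1 such E-box, 1 ETS core (AGGAAG) and 2 TCF/LEF cores (CTTTGA), the core read by the products of Tcf7 and Lef1, while the Cd3e window held 2 ETS cores. The other motifs searched were the RUNX core TGTGGT and the E-box CAGCTG, and no 2 marked matches overlap. RefSeq entries matched 7 of the 9 genes (not Cd4 or Cd8b1) with 12 windows in all. Of these 12 windows, 4 held the ETS core, 2 the TCF/LEF core, 2 CAGGTG, 3 CAGCTG and 0 the RUNX core. Of 32851 RefSeq promoter windows of the same length, 29.5% held the ETS core, 13.8% the TCF/LEF core, 17.2% CAGGTG, 13.0% CAGCTG and 14.0% the RUNX core. These matches are descriptions of letters, not of bound sites.

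Recovered reads per library ran from 57600711 to 302145813, and all values below are the authors' normalised read numbers. Adipocyte genes marked every library as fat: the summed value of 7 adipocyte markers lay between 12952 and 22508, with none at 0. A few libraries stood apart. The library of p21 male 53 had the fewest reads and detected 14054 genes, SW male 84 detected 15497 and every other library more. In DW females 82 and 83 the values fell with the GC content of the transcript, by 0.391 and 0.627 on the log2 scale per 10 points of GC against the median library, while the slopes of the other libraries ran from -0.363 (p21 male 37) to 0.241. Where a gene named below lost its call without these 4 libraries, that is said beside it. The library of p21 male 37, with a slope near that of DW female 82, is not among these 4 and was left out only singly. By the sample descriptions all p21 animals carry numbers from 30 to 56 and all p28 animals numbers from 73 upward, so age and anything else that went with the numbering cannot be told apart. For p21 female 56 the library title gives a different number, and the description was followed.

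All 9 genes were detected in all 24 libraries, with between 518 reads (Foxp3) and 39210 reads (Tcf7), and none was at 0. Compared per kilobase of exon, Tcf7 was the most abundant, with a median level of 47.8 normalised reads per kilobase over the 24 animals, higher than 96.0% of genes. Next came a band of 6 receptor and co-receptor genes with median levels per kilobase of 17.7 (Cd4), 15.7 (Cd3d), 15.4 (Cd8b1), 13.6 (Cd3e), 13.5 (Cd3g) and 12.3 (Cd8a). Lef1 followed at 6.77 and Foxp3 was lowest at 2.42, which is above 45.1% of genes. At both ends of this order neighbours kept their places in every animal: Tcf7 exceeded Cd4, Cd8a exceeded Lef1 and Lef1 exceeded Foxp3 in 24 of 24. Genes that are not neighbours were not compared by animal, and the highest Cd3d level (29.6) lay above the lowest Tcf7 level (25.7). Within the band the neighbours did not separate by animal, since Cd4 exceeded Cd3d in 20 of 24 animals, Cd3d exceeded Cd8b1 in 13, Cd8b1 exceeded Cd3e in 18, Cd3e exceeded Cd3g in 17 and Cd3g exceeded Cd8a in 17. Strand use in counting is not given in the sources used here, and exons of Lef1, Cd3e and Foxp3 share 1208, 135 and up to 590 bases with genes on the opposite strand. Foxp3 also shares 853 bases with Flicr on its own strand, so the levels of these 3 genes are uncertain.

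**Figure D1:**
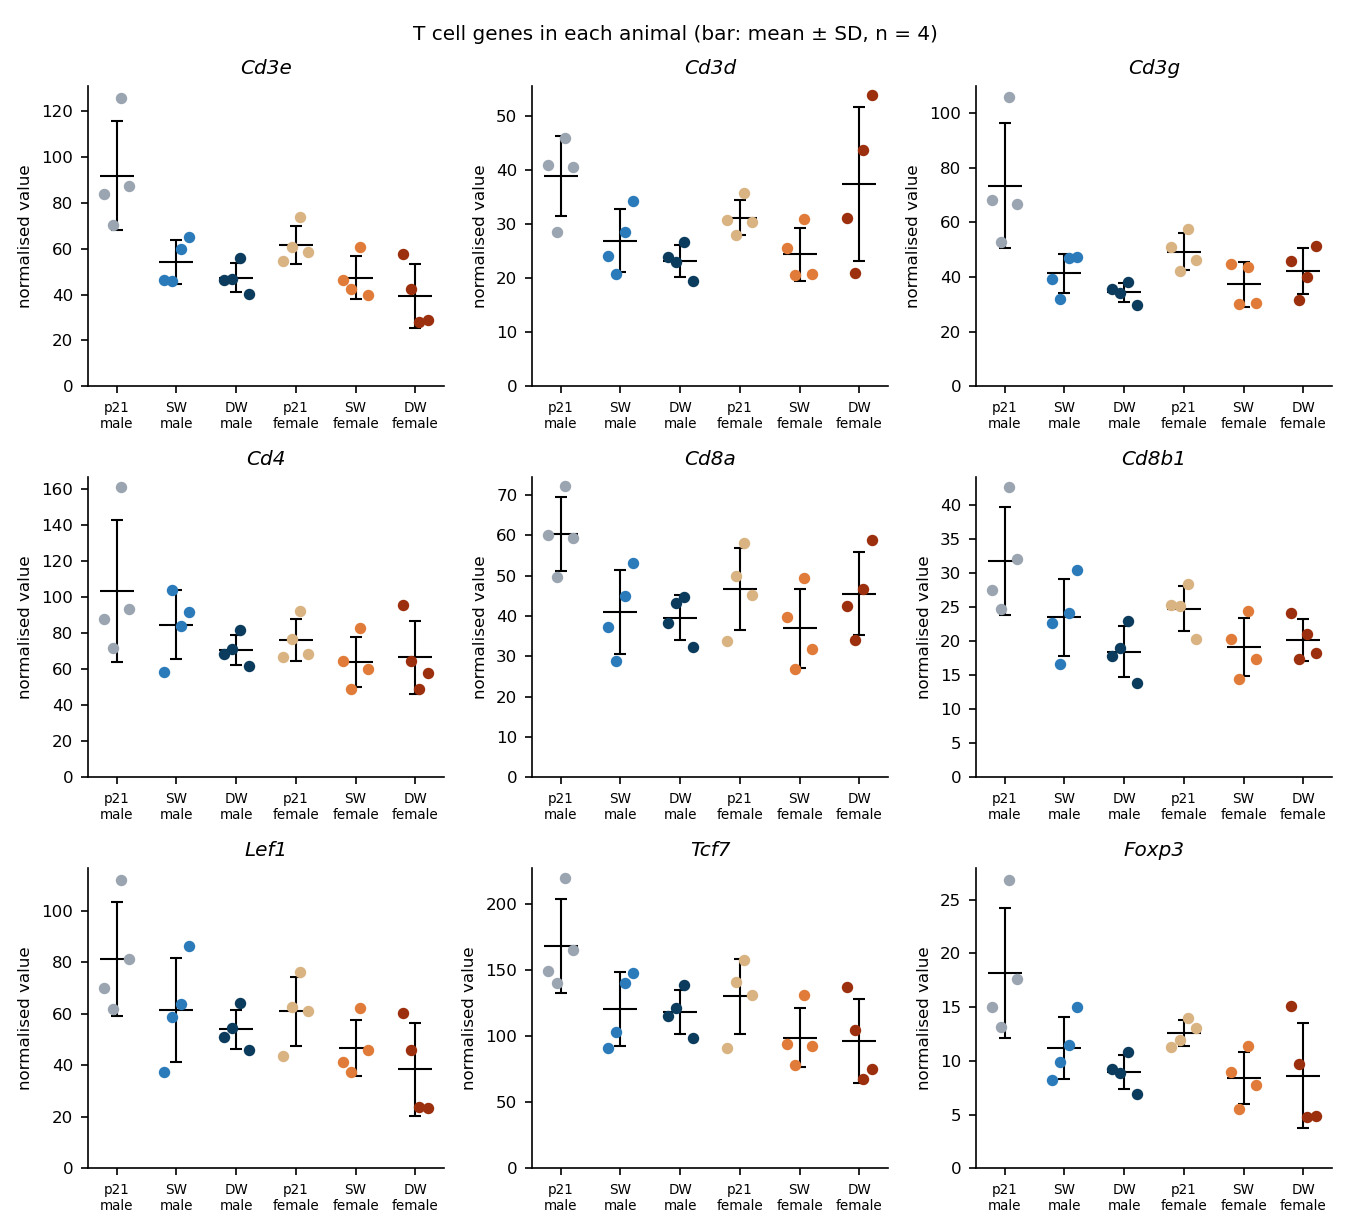
Normalised value (y axis, linear, from 0) of each of the 9 T cell genes in every animal, by group of 4 (x axis); points are animals and bars the mean ± SD. The 4 p21 males have the highest group mean for every gene, and in DW females the 2 lowest Cd3e values, 27.9 and 29.1, belong to the animals with the 2 highest Cd3d values, 43.6 and 53.8.

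The largest number of calls came with age in males, where T cell genes were lower at day 28 than at day 21. In DW males 5 of the 9 genes fell from the p21 level (Cd3e, Cd3d, Cd3g, Cd8b1 and Foxp3), by 0.71 to 1.03 on the log2 scale, and in SW males 2 fell (Cd3e and Cd3g), by 0.73 and 0.78. These counts stand beside 6.1% of all 16005 genes tested that were called lower in DW males (15% in either direction) and 4.97% in SW males (11.9% in either direction). The remaining genes also had negative changes in both comparisons, from -0.25 to -0.64, without passing the test. Both comparisons use the same p21 males, so they are not independent. Tests were made with limma on log2(value + 1), and genes with an adjusted p (Benjamini-Hochberg) under 0.05 are referred to as called. In tissue RNA, fewer T cells and less of these transcripts per T cell cannot be told apart.

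Cd3g, the gamma chain gene, changed most. Its normalised values were 68, 52.9, 106 and 66.6 in the p21 males, 39.1, 32.1, 46.9 and 47.2 in the SW males and 35.5, 34.1, 38.1 and 29.8 in the DW males. Every p28 male was below every p21 male. The log2 change was -1.03 in DW males (SE 0.188, limma adjusted p 0.00145), a level 0.49 of that at p21, and -0.78 in SW males (SE 0.188, limma adjusted p 0.0098).

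Cd3e, the epsilon chain gene, read 83.8, 70.5, 126 and 87.3 in the p21 males, 46.3, 45.8, 60 and 65 in the SW males and 46.6, 46.7, 56.0 and 40.4 in the DW males. Again no p28 male reached the lowest p21 male, and animal 53 was the highest of the p21 males, as it was for all 9 genes. The log2 change was -0.92 in DW males (SE 0.202, limma adjusted p 0.00494) and -0.73 in SW males (SE 0.202, limma adjusted p 0.0213). Cd3d, the delta chain gene, was 40.9, 28.5, 45.9 and 40.5 in the p21 males, 24.0, 20.8, 28.6 and 34.2 in the SW males and 23.9, 22.9, 26.6 and 19.4 in the DW males. The DW males all lay below the p21 males, while SW males 85 and 124 overlapped with the lowest p21 male. Its change was -0.71 in DW males (SE 0.215, limma adjusted p 0.0297) and -0.52 in SW males (limma adjusted p 0.118).

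Among the co-receptors, Cd8b1 fell in DW males. Its values were 27.5, 24.8, 42.7 and 32.1 in the p21 males, 22.7, 16.7, 24.1 and 30.5 in the SW males and 17.9, 19.0, 23.0 and 13.9 in the DW males. Only the DW males were clear of the p21 males, at a change of -0.74 (SE 0.192, limma adjusted p 0.0131) against -0.42 in SW males (limma adjusted p 0.16). Cd8a ran from 49.7 to 72.2 in p21 males, 28.9 to 53.2 in SW males and 32.4 to 44.7 in DW males. Its change of -0.59 in DW males missed the threshold (limma adjusted p 0.0529) although the DW and p21 males did not overlap. Cd4, which macrophages and dendritic cells can also express, spread most: it was 87.7, 71.6, 161 and 93.5 in p21 males, 58.6, 104, 84.0 and 92.0 in SW males and 68.5, 71.3, 81.7 and 61.8 in DW males. The groups overlapped and the changes were -0.25 in SW males (limma adjusted p 0.513) and -0.48 in DW males (limma adjusted p 0.154).

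Foxp3 was 15.0, 13.2, 26.8 and 17.6 in the p21 males, 8.22, 9.94, 11.5 and 15.0 in the SW males and 9.21, 8.85, 10.8 and 6.95 in the DW males. All DW males were below all p21 males, and SW male 124 lay above p21 male 38. The log2 change was -0.91 in DW males (SE 0.274, limma adjusted p 0.0293) and -0.64 in SW males (limma adjusted p 0.137). Tcf7 ran from 140.0 to 219.6 in p21 males, 90.8 to 148 in SW males and 99.0 to 139 in DW males, with changes of -0.49 and -0.49 that were not called (limma adjusted p 0.15 and 0.131). Lef1 ran from 61.9 to 112 in p21 males, 37.3 to 86.3 in SW males and 46.1 to 64 in DW males, with changes of -0.42 and -0.56 (limma adjusted p 0.34 and 0.177). These 2 transcription factor genes were thus lower in the means, but only Tcf7 in DW males was clear of the p21 males.

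Counted by overlap, DW and p21 males were apart for 7 of the 9 genes, where 10.7% of all genes were lower without overlap, and SW and p21 males for 2 of 9, where 7.69% were. The median log2 change over the 9 genes was -0.71 in DW males and -0.52 in SW males, beside 0.02 and 0.02 over all genes tested.

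These male results rested on single animals to different degrees. Cd3e and Cd3g in DW males were called in all 36 other settings, with log2 changes of -1.03 to -0.75 for Cd3e and -1.17 to -0.84 for Cd3g. Without p21 male 53, only these 2 genes remained called of the 5 in DW males, and likewise without DW male 87, where 3.5% and 2.93% of all genes were called lower. Without animal 53 the changes in DW males were -0.63 for Cd3d (limma adjusted p 0.0956), -0.60 for Cd8b1 (limma adjusted p 0.0588) and -0.72 for Foxp3 (limma adjusted p 0.116). Leaving out p21 male 54, DW male 79 or DW male 80 left 3 genes called. With single animals left out, all genes called in DW males ran from 1236 to 2752 in either direction. With all 4 libraries that stood apart left out, 5 genes were called in DW males, beside 8.41% of all genes lower. In SW males Cd3e was no longer called without p21 male 53, SW male 78 or SW male 84, nor after a GC correction (-0.68, limma adjusted p 0.0578). Without the 4 libraries neither Cd3e nor Cd3g was called, where 6.63% of all genes were lower, with changes of -0.50 for Cd3e (limma adjusted p 0.0577) and -0.48 for Cd3g (limma adjusted p 0.0726).

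**Figure D2:**
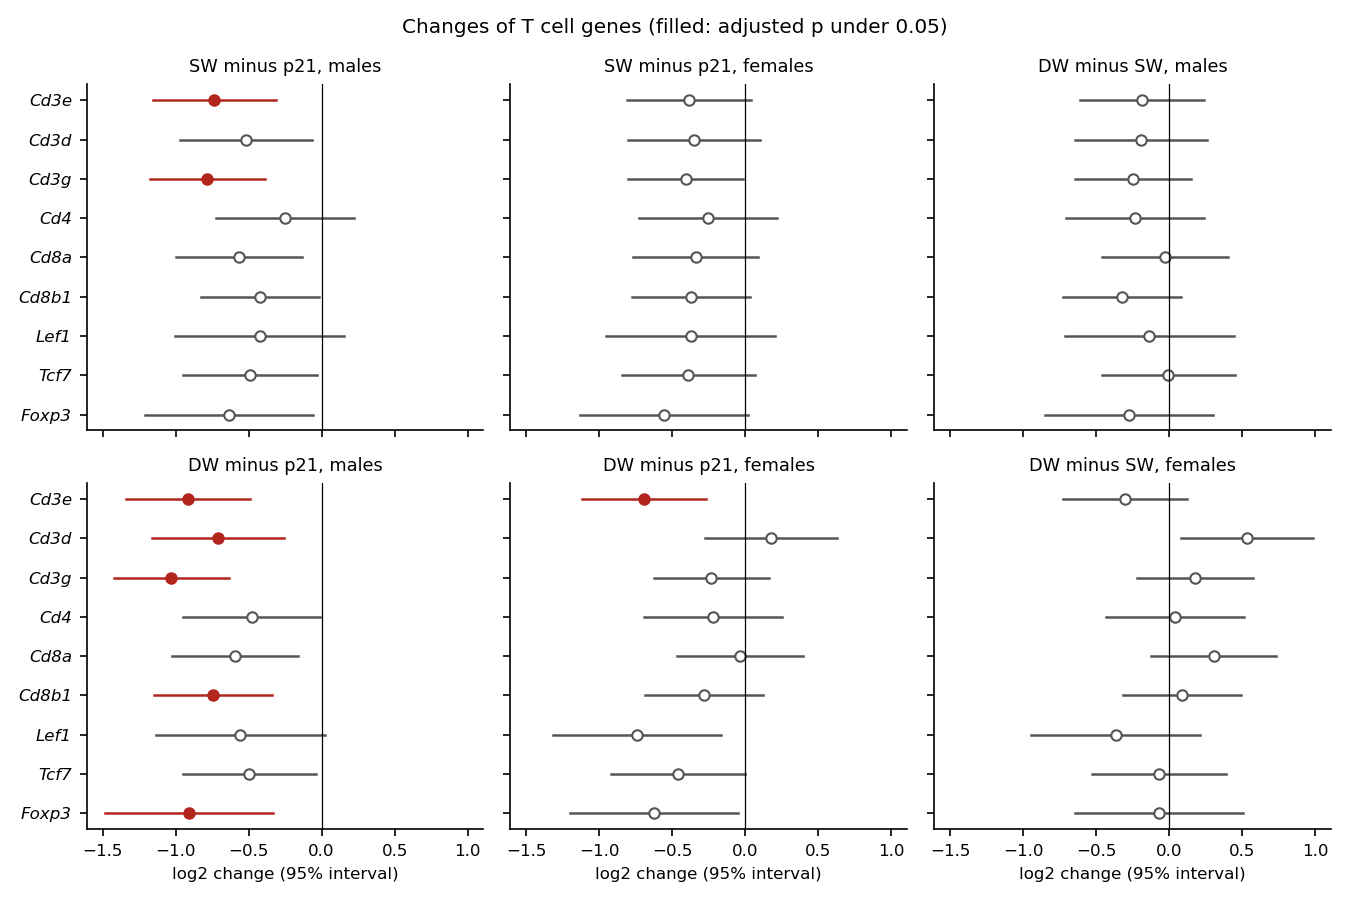
Log2 change (x axis) with its 95% interval for each of the 9 genes (y axis) in 6 comparisons, from limma on log2(value + 1); filled red points have an adjusted p under 0.05. Points lie left of 0 for all 9 genes in both male age comparisons, and no point in the panels for delayed against standard weaning is filled.

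In females the age changes were smaller and mostly not called. From p21 to SW all 9 changes were negative, from -0.26 (Cd4) to -0.56 (Foxp3), with a median of -0.38 beside 0.01 over all genes. limma called 0 of them (1 at an unadjusted p under 0.05, Cd3g), and edgeR and DESeq2 on the recovered reads also called 0, while 4.23% of all genes were called lower (11.6% in either direction). In limma 3855 of all 16005 genes tested had an unadjusted p under 0.05. Cd3g was 50.9, 42.3, 57.7 and 46.3 in p21 females and 44.8, 30.0, 43.8 and 30.5 in SW females. The lowest p21 female lay below the highest SW females, and the change was -0.41 (95% interval -0.81 to -0.01, limma adjusted p 0.184). Foxp3 came nearest to separation, with 11.3, 11.9, 14.0 and 13.1 in p21 females and 8.98, 5.56, 11.4 and 7.80 in SW females. For all 9 genes the 2 groups overlapped, where 10.1% of all genes were lower without overlap.

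In DW females Cd3e fell, and the other 8 genes were not called, where 6.16% of all genes were called lower (12.1% in either direction). Cd3e was 54.5, 60.6, 73.7 and 58.4 in p21 females and 57.6, 42.5, 27.9 and 29.1 in DW females, which is -0.69 on the log2 scale (SE 0.202, limma adjusted p 0.0277). The 2 lowest values are those of DW females 82 and 83, and DW female 76 lay within the p21 range. Without animals 82 and 83 the change was -0.31 (limma adjusted p 0.417), and without p21 female 36, p21 female 55, DW female 82 or DW female 83 alone 0 of the 9 genes were called. All genes called ran from 1071 to 3123 in either direction when single animals were left out. Without DW female 76, in contrast, 4 were called (Cd3e, Lef1, Tcf7 and Foxp3), and the share of all genes called lower was then 10.3%. The other changes with all animals ran from -0.74 (Lef1, limma adjusted p 0.0809) to 0.18 (Cd3d, limma adjusted p 0.637), with a median over the 9 genes of -0.28 beside 0 over all genes. For all 9 genes DW and p21 females overlapped, where 7.61% of all genes were lower without overlap.

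Whether the age change differed between the sexes was tested directly. The interaction of sex and age called 0 of the 9 genes for SW animals (0 at an unadjusted p under 0.05) and 0 for DW animals (2 at an unadjusted p under 0.05), where 1.03% and 0.0687% of all genes were called. Of all 16005 genes tested, 1304 for SW and 2723 for DW animals had an unadjusted p under 0.05 in limma. In SW animals its largest value was 0.37 (Cd3g, limma adjusted p 0.846). In DW animals the log2 change was higher in females than in males by 0.89 for Cd3d (limma adjusted p 0.18) and by 0.80 for Cd3g (limma adjusted p 0.171), and neither passed. Without DW females 82 and 83 these values were 0.44 (limma adjusted p 0.626) and 0.67 (limma adjusted p 0.465). edgeR called 0 in both, and DESeq2 called Cd3d in the DW interaction, where it called 2.06% of all genes. The age change in T cell genes was thus called in more genes in males, but the test of the difference did not separate the sexes.

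Males and females of the same age and weaning were also compared. At p21 all 9 genes were lower in females in the mean, by 0.30 to 0.54 on the log2 scale, and limma called 0 (2 at an unadjusted p under 0.05), where 0.356% of all genes were called. Cd3e was 70.5 to 126 in p21 males and 54.5 to 73.7 in p21 females, a difference of -0.54 (limma adjusted p 0.454), and Cd3g differed by -0.53 (limma adjusted p 0.431). In SW animals all 9 differences were again negative, from -0.13 to -0.39, with 0 called (0 unadjusted) beside 3.54% of all genes. In DW animals they ran from -0.59 (Lef1) to 0.59 (Cd3d, limma adjusted p 0.145), with 0 called by limma (2 unadjusted) beside 2.46% of all genes, and DESeq2 called Cd3d, beside 5.3% of all genes. Without DW females 82 and 83 the difference was -0.02 for Lef1 and 0.15 for Cd3d. edgeR called 0 in all 3 comparisons. Of all 16005 genes tested, 1376 at p21, 1466 in SW and 3158 in DW animals had an unadjusted p under 0.05 in limma.

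Delayed weaning was compared with standard weaning at day 28, the contrast of the study's title. In males all 9 differences were negative but small, from -0.005 (Tcf7) to -0.32 (Cd8b1, 95% interval -0.73 to 0.08), with a median of -0.19 beside 0.00 over all genes. limma called 0 (0 at an unadjusted p under 0.05), as did edgeR and DESeq2, where 0.256% of all genes were called. In females the differences ran from -0.37 (Lef1) to 0.53 (Cd3d, 95% interval 0.08 to 0.98, limma adjusted p 0.214), with 0 called (1 unadjusted, Cd3d) by limma, edgeR and DESeq2, where 1.27% of all genes were called. Cd3d was 25.5, 20.5, 30.9 and 20.8 in SW females and 31.2, 21.0, 43.6 and 53.8 in DW females, so the 2 highest values were those of DW females 82 and 83. Without these animals the Cd3d difference was 0.09, and all 9 female differences were positive, with a median of 0.12. Averaged over the sexes the differences ran from -0.25 to 0.17, with 0 called (0 unadjusted) beside 2.21% of all genes. The interaction of sex and weaning called 0 (1 unadjusted, Cd3d at 0.72, limma adjusted p 0.802) beside 0.0187% of all genes. Of all 16005 genes tested, 1110 in males and 3019 in females had an unadjusted p under 0.05 in limma. The numbers were 2781 for the average over the sexes and 815 for the interaction.

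The p28 animals carry numbers from 73 to 80 and from 81 to 87, apart from SW male 124, and the weaning difference was also read within each run without a test. In males it ran over the 9 genes from -0.29 to 0.49 in the first run (2 DW, 1 SW), with 3 negative, and from -0.39 to 0.07 in the second (2 DW, 2 SW), with 8 negative. In females it ran from -0.03 to 0.50 in the first run (2 DW, 3 SW), with 1 negative, and from -0.94 to 1.18 in the second (2 DW, 1 SW), with 5 negative. Only the second female run, which holds animals 82 and 83, spread this widely.

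Genes that work with the CD3 complex were lower at day 28 wherever they were called. Of 17 genes of T cell receptor signalling, limma called 2 lower in SW males, 4 lower in DW males and 0 in females of either weaning, with none higher in these 4 comparisons. Of all genes, 4.97% and 6.1% were called lower in SW and DW males, and 4.23% and 6.16% in SW and DW females. Skap1, an adaptor protein of T cells, fell from a mean of 20.18 in p21 males to 12.74 in SW males (log2 change -0.64, limma adjusted p 0.0171) and 10.41 in DW males (-0.89, limma adjusted p 0.00191). In DW males Cd2, an adhesion molecule of T and NK cells, fell by 0.60 (limma adjusted p 0.0179), and Prkcq and Ubash3a, a kinase and a negative regulator of receptor signals, fell by 0.54 and 0.77 (limma adjusted p 0.0193 and 0.0269). Without the 4 libraries that stood apart the numbers lower were 0 in SW males (Skap1 -0.39), 3 in DW males (Ubash3a was lost, at -0.55) and 3 in SW females. The shares of all genes lower without these libraries are given above for males, and in SW females 3455 genes were called in either direction. With all animals 5 and 3 genes had an unadjusted p under 0.05 in SW and DW females, beside 3855 and 4414 of all 16005 genes in limma. There edgeR and DESeq2 also called 0. The medians over the 17 genes were -0.44 and -0.54 in SW and DW males and -0.33 and -0.27 in SW and DW females.

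Of 11 genes of T cell homing and survival, 4 were called lower in SW males, 3 in DW males, 2 in SW females and 0 in DW females, with none higher. The shares of all genes called lower were 4.97%, 6.1%, 4.23% and 6.16%, in the same order. Ccr7, the receptor that brings naive T cells and dendritic cells into lymph nodes, was called in 3 of these comparisons: 27.3 to 37.9 in p21 males against 14.2 to 31.4 in SW males and 14.9 to 22.9 in DW males, and 21.8 to 33.5 in p21 females against 11.0 to 19.4 in SW females. The log2 changes were -0.75, -0.82 and -0.85 (limma adjusted p 0.0349, 0.0196 and 0.0157). Cd40lg, the T cell signal that helps B cells, fell in the same 3 comparisons, by 0.53, 0.72 and 0.48 (limma adjusted p 0.021, 0.00282 and 0.0327). Il7r, the receptor for the survival cytokine IL-7, fell by 0.95 in SW males (limma adjusted p 0.0248), and Cd69, an activation and residence marker, fell by 0.87 in SW and 0.94 in DW males (limma adjusted p 0.0324 and 0.019). Without the 4 libraries only Cd40lg was called in SW males (Il7r was -0.83, Ccr7 -0.59 and Cd69 -0.70), and 3 in DW males and 2 in SW females as before. The shares or numbers of all genes called without these libraries are given above. The medians over the 11 genes were -0.50 and -0.65 in SW and DW males and -0.29 and -0.13 in SW and DW females.

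Treg-associated genes were mixed. Of 12 genes, 3 were lower and 0 higher in SW males, 4 lower and 1 higher in DW males, and 1 lower and 1 higher in females of each weaning. Of all genes, 4.97% were lower and 6.9% higher in SW males, and 6.1% and 8.86% in DW males. In SW females these shares were 4.23% and 7.39%, and in DW females 6.16% and 5.95%. Ctla4, an inhibitory receptor abundant on Tregs, fell by 0.56 in SW males (limma adjusted p 0.0284), 0.59 in DW males (limma adjusted p 0.0193) and 0.79 in SW females (limma adjusted p 0.00213), where it was 4.27 to 5.85 at p21 and 2.18 to 2.99 after SW. Tnfrsf4, which encodes the co-stimulator OX40, fell by 0.96 in DW males and 0.79 in DW females (limma adjusted p 0.00624 and 0.0207), the latter -0.44 and not called without animals 82 and 83. The gene called higher in DW animals was Il10, which macrophages also make, and its values were low, at most 0.338 in DW males and 0.313 in DW females (limma adjusted p 0.00573 in males and 0.0261 in females). In SW females the gene called higher was Areg (1.39, limma adjusted p 0.0125), a growth factor also made by epithelium. The medians over the 12 genes were -0.30, -0.24, -0.17 and -0.03 in SW males, DW males, SW females and DW females.

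The cytotoxic and NK cell genes that were called rose in 3 of the 4 age comparisons. Of 13 genes, 5 rose and 0 fell in SW animals of each sex, 3 rose and 0 fell in DW females, and 0 rose and 2 fell in DW males. Of all genes, 6.9%, 7.39%, 5.95% and 8.86% rose in SW males, SW females, DW females and DW males, and 6.1% fell in DW males. The summed value of the 13 genes did not rise in the mean. It was 109, 98.5 and 76.2 in p21, SW and DW males and 92.4, 83.8 and 87.5 in p21, SW and DW females, with overlapping ranges. Gzma, a granzyme of NK and cytotoxic T cells, rose in SW females from 0.513 to 1.02 at p21 to 3.64 to 5.46 (log2 change 1.76, limma adjusted p 3.33e-05). Ncr1, a receptor of NK cells, rose in SW males by 0.53 (limma adjusted p 0.0161), in SW females by 0.73 (limma adjusted p 0.0011) and in DW females by 0.64 (limma adjusted p 0.00456). In DW males the genes that fell were Ctsw and Ccl5, by 0.65 and 0.79 (limma adjusted p 0.0317 and 0.0474), both expressed by cytotoxic T cells and NK cells, and without the 4 libraries neither was called (-0.46 and -0.76). Gzma also gave the one weaning call of this list in females, at 1.12 to 4.14 in DW against 3.64 to 5.46 in SW females (log2 difference -0.97, limma adjusted p 0.0478). Without DW females 82 and 83 the difference was -0.58 and not called (limma adjusted p 0.916), and edgeR called 5 genes of the list in SW females but 2 in SW males.

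Of 11 transcription factors of T cell fate, 1 rose and 1 fell in SW males, 1 rose in SW females, 1 fell in DW males and none was called in DW females, where 11.9%, 11.6%, 15% and 12.1% of all genes were called in these comparisons. Gata3 rose in SW females (1.76, limma adjusted p 5.95e-05), Bcl11b fell in SW males and Tox fell in DW males (-0.58, limma adjusted p 0.05 after rounding), and without the 4 libraries the changes were -0.45 for Bcl11b and -0.38 for Tox, not called. Gata3, a factor of helper T cells that luminal mammary epithelium also expresses, was 37.1 to 49.3 in SW females and 4.77 to 8.97 in SW males. In DW females it was 9.40 to 25.6, a difference from SW females of -1.37 (limma adjusted p 0.00745), which was -0.75 and not called without DW females 82 and 83 (limma adjusted p 0.382). Epithelial genes moved with it: the summed value of 9 epithelial markers was 293 to 400.1 in SW females, 114 to 251 in DW females, 54.6 to 186 in p21 females and 5.58 to 60.5 in males. Their part in the Gata3 values was not tested. Of 11 Wnt response genes, a pathway that acts through TCF and LEF factors, Lgr6 was called lower in all 4 age comparisons, by 2.15 and 1.79 in SW and DW males and 0.87 and 1.23 in SW and DW females, and no other gene was called.

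**Figure D3:**
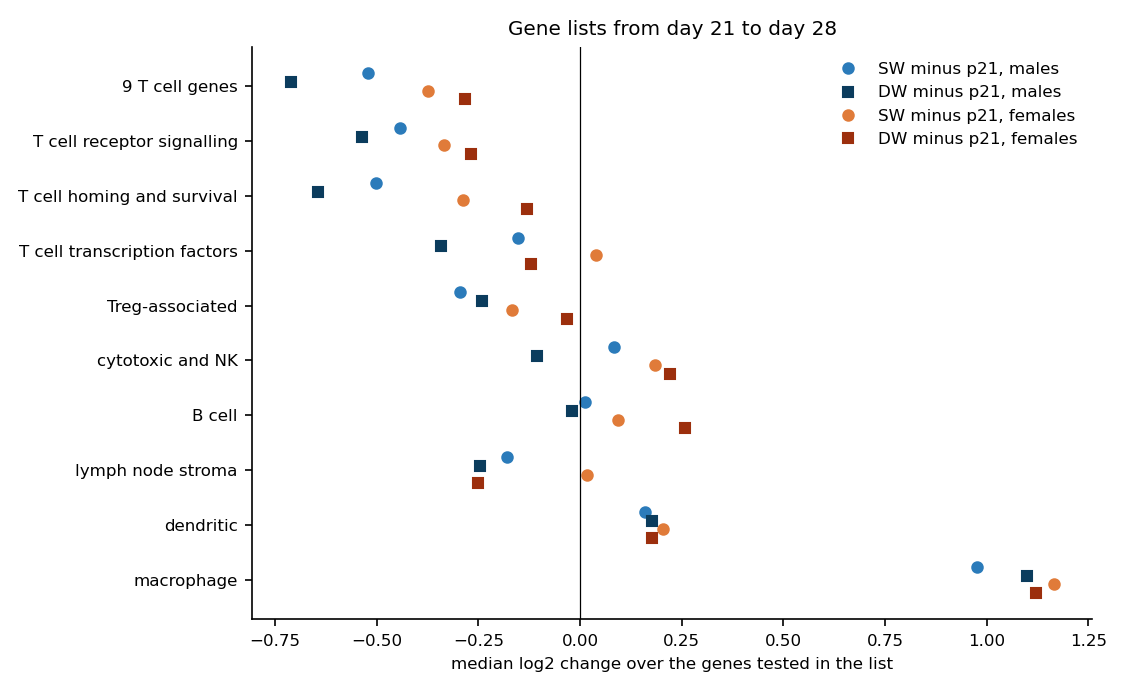
Median log2 change from day 21 to day 28 (x axis) over the tested genes of 10 lists (y axis), for SW and DW animals (circles and squares) of each sex (blue males, orange females). The T cell lists for the 9 genes, receptor signalling and homing lie left of 0 in all 4 comparisons, B cell genes lie from -0.02 to 0.26 and macrophage genes near 1.

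Markers of the other leukocytes of the pad are given beside these results. Of 14 B cell genes limma called 0 in each of the 4 age comparisons, as did edgeR and DESeq2 (1 at an unadjusted p under 0.05, in DW females), with limma medians of 0.01 and -0.02 in SW and DW males and 0.09 and 0.26 in SW and DW females. In DW females 4414 of all 16005 genes tested had an unadjusted p under 0.05 in limma. Ms4a1, the gene of the B cell surface protein CD20, was 39.9 to 76.7 in p21 males, 43.9 to 64.9 in SW males and 45.3 to 58.1 in DW males, so B cell transcripts were present in every animal. Macrophage genes rose: of 10 genes 8 rose in SW males, 10 in DW males, 8 in SW females and 8 in DW females, with 0 lower and medians from 0.98 to 1.17, and their summed value was 374 to 507 in p21 males and 671 to 1035 in SW males. Of all genes, 6.9% and 8.86% rose in SW and DW males, and 7.39% and 5.95% in SW and DW females. Of 7 pan-leukocyte genes, Arhgdib fell in DW males (limma adjusted p 0.0362, and -0.37 and not called without the 4 libraries) and no other was called. In DW males 6.1% of all genes were called lower. Of the 7 adipocyte markers, 2 rose in SW and in DW males: Adipoq, the adiponectin gene, by 0.82 and 0.83, and Cidec, of the lipid droplet, by 1.22 and 1.00, while Lep, the leptin gene, fell in SW males by 1.18 (-1.11 and not called without the 4 libraries). In SW females Pparg was lower than at p21 (log2 change -0.76, limma adjusted p 0.00235), also without the 4 libraries. No other adipocyte marker was called with age in females. The mean of the summed adipocyte value was 14639 in p21 males, 19689 in SW males and 19318 in DW males, and 15986 to 20828, 15597 to 20708 and 15895 to 20497 were its ranges in p21, SW and DW females. The part of the adipocyte share in the T cell results was not tested.

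Lymph node stroma and muscle are given because a dissected pad can include both. Of 12 lymph node stromal genes 3 fell in SW males and 1 in DW males, 0 in SW females and 1 in DW females. Of all genes 4.97%, 6.1%, 4.23% and 6.16% were called lower in these comparisons, so 1 gene of 12 is near that share. Glycam1, a glycoprotein of the high endothelial venules through which lymphocytes enter nodes, was 632 to 1746 in p21 males, 262 to 837 in SW males and 508 to 816 in DW males. It fell in SW males (log2 change -1.12, limma adjusted p 0.0246), and Chst4, which encodes an enzyme of the same venules, fell from a mean of 11.1 in p21 males to 4.45 in SW males (limma adjusted p 0.00171) and 4.68 in DW males (limma adjusted p 0.00288), and from 7.04 in p21 females to 4.02 in DW females (limma adjusted p 0.0356, not called without animals 82 and 83, at a log2 change of -0.59). The summed value of the 12 genes was 1423 to 2988 in p21 males, 927 to 1594 in SW males and 1313 to 1744 in DW males, and none was at 0 in any animal. Of 7 skeletal muscle genes, 7 rose in SW and in DW males, with sums of 4.88 to 549 in p21 males, 439.9 to 5209.6 in SW males and 328 to 6815 in DW males, although edgeR called 0 of them (6 at an unadjusted p under 0.05 in each). In SW and DW males limma called 6.9% and 8.86% of all genes higher. The part of node and muscle tissue in the T cell results was not tested.

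T cell transcripts were also read against B cell transcripts of the same animal, with no test. The summed CD3 value over the summed B cell value was 0.185 to 0.285 in p21 males, 0.117 to 0.131 in SW males and 0.103 to 0.125 in DW males. In females it was 0.167 to 0.271 at p21, 0.123 to 0.164 after SW and 0.12 to 0.173 after DW. In males the p28 animals all lay below the p21 animals, of which animal 53, with the highest T and B cell sums, had the lowest ratio. In females SW animals were clear of p21 animals, while DW animals overlapped. With the B cell score as a covariate in the fit, 6 of the 9 genes were called lower in SW males, 8 in DW males, 5 in SW females and 5 in DW females. The same fit called 7.1%, 7.45%, 5.09% and 7.18% of all genes lower in these comparisons.

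Foxp3 was also read against Cd4. The ratio of normalised values was 0.166 to 0.188 in p21 males, 0.0952 to 0.163 in SW males and 0.113 to 0.134 in DW males, and 0.151 to 0.191 in p21 females, 0.114 to 0.138 in SW females and 0.0845 to 0.158 in DW females. The p28 males and the SW females all lay below the p21 animals of their sex, and DW females overlapped with them. Cd4 is not confined to T cells, so this ratio is no share of Tregs.

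**Figure D4:**
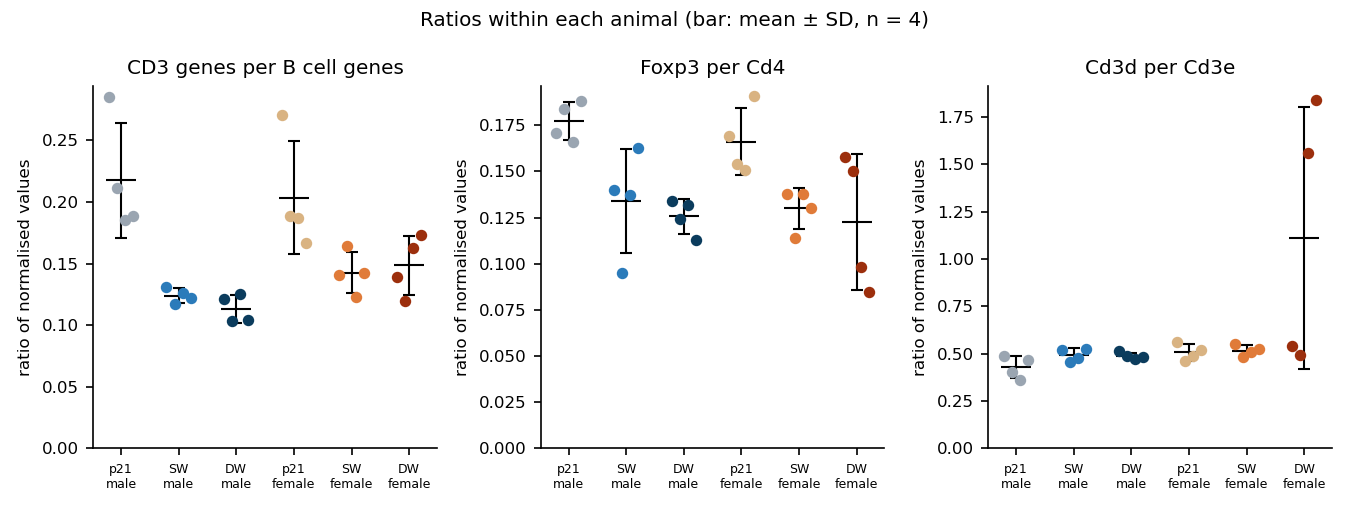
Ratios of normalised values within each animal (y axes, from 0) by group (x axis): summed Cd3e, Cd3d and Cd3g over 14 summed B cell genes, Foxp3 over Cd4, and Cd3d over Cd3e; points are animals and bars the mean ± SD, n = 4. The first ratio is 0.185 to 0.285 in p21 males and at most 0.131 in p28 males, and Cd3d over Cd3e is above 1 only in DW females 82 and 83 (1.56 and 1.84).

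Across the 24 animals the 9 genes varied together, except in 2 libraries. Pearson's r of log2(value + 1) over the 36 pairs of genes ran from 0.098 (Cd3d with Lef1) to 0.955 (Lef1 with Tcf7), with a median of 0.761. Without DW females 82 and 83 it ran from 0.698 to 0.96, with a median of 0.889, and that of Cd3d with Cd3e went from 0.318 to 0.945. With group means removed the median was 0.631. The points share pad composition and library scaling, so these values are descriptions.

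DW females 82 and 83 departed from the others within the CD3 complex itself. Their Cd3d values were 1.56 and 1.84 of their Cd3e values, against 0.363 to 0.562 in the other 22 animals, and 1.09 and 1.05 of their Cd3g values, against 0.434 to 0.724. Cd4 over Cd8a was 1.04 and 0.984 in them and 1.44 to 3.61 in the others, and Lef1 over Tcf7 was 0.351 and 0.311 against 0.411 to 0.584. Against DW females 76 and 77, the log2 differences were -0.77 for Cd3e, 0.89 for Cd3d, 0.25 for Cd3g, -1.13 for Lef1, -0.74 for Tcf7 and -1.17 for Foxp3. Transcript GC is 44.5% for Cd3e and 50.0% for Cd3d. After a linear GC correction the differences were -1.04 for Cd3e, 0.93 for Cd3d and -0.23 for Cd3g. The part of GC in this split was not tested beyond that correction. Every DW female mean above averages these 2 libraries with those of animals 76 and 77.

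**Figure D5:**
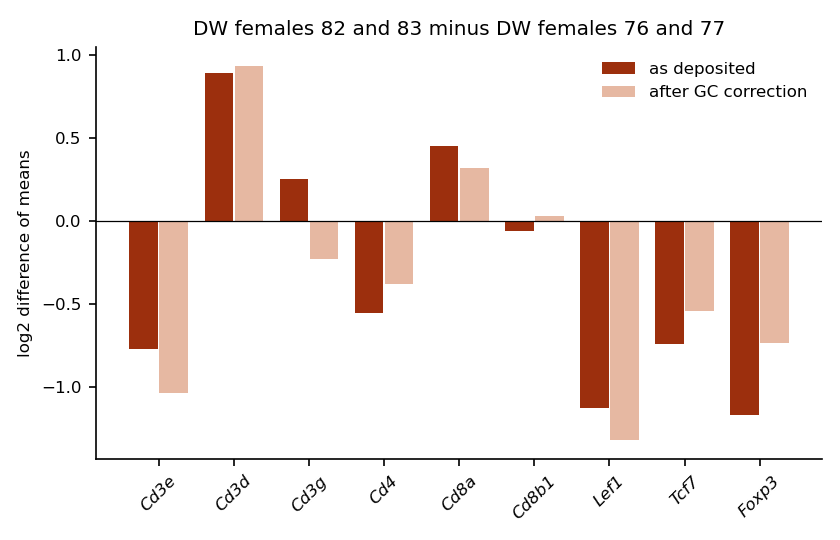
Log2 difference of mean log2 values (y axis) between DW females 82 and 83 and DW females 76 and 77 for each of the 9 genes (x axis), as deposited (dark bars) and after a linear correction for transcript GC (light bars). Cd3e stays at -0.77 and -1.04 and Cd3d at 0.89 and 0.93, while Cd3g goes from 0.25 to -0.23.

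The genes most like the CD3 genes across the animals were sought among 15996 others, by Pearson's r with the mean standardised log2(value + 1) of Cd3e, Cd3d and Cd3g over 24 animals. The 10 highest were Skap1 (0.951), Cd160 (0.951), Cd2 (0.937), Dgka (0.933), Nsg2 (0.911), Rassf5 (0.909), Prkcq (0.901), Cytip (0.895), Arl5c (0.890) and Cd69 (0.890). Among them Cd160 is a receptor of NK and CD8 T cells and Dgka a lipid kinase that dampens receptor signals. Cd2, Skap1 and Prkcq are on the receptor signalling list and Cd69 on the homing list. With group means removed these 10 values ran from 0.781 (Cd69) to 0.928 (Cd160), so the likeness was not only a difference between groups. Without DW females 82 and 83 Skap1 and Cd160 were again the highest, at 0.957 and 0.952.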

How the data were processed

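Inguinal fat of 24 mice was sequenced. Samples were grouped by their labels for weaning, age and sex; where the title of a p21 library names a different age, the age label was used. The members and gene lists were chosen with earlier results of these data known. Per the labels, RNA was extracted with the RNeasy Lipid Tissue kit and libraries were made with the KAPA mRNA HyperPrep kit. The submitters' processing notes name fastp, HISAT2, featureCounts, DESeq2 1.38.3 and mm10. The roles and the strand setting are not given in the sources used here.

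The authors deposited a normalised signal per gene and library, which equals whole reads divided by a factor of each library: 100% of values were whole multiples (tolerance 0.01). Of 16208 rows, 90 were repeats, which left 16118 genes. For each comparison a log2 fold change and a p-value were deposited too, and are used only where the authors' table is named. Recovered reads per library were 57600711 to 302145813, and intervals cover the spread between animals. The smallest chi-square per degree of freedom over 36 replicate pairs was 77.11, so no 2 libraries of a group agreed within sampling noise.

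Since the values were normalised, limma 3.58.1 (R 4.3.3, variance trend) was fitted to log2(value + 1) of all 24 libraries with 6 group terms, on 16005 genes kept by filterByExpr (minimum count 10), after a test on simulated data. Changes on this scale understate those of low genes. P-values were Benjamini-Hochberg adjusted over all genes tested and called under 0.05. Nothing in the labels says which animals were littermates, so they measure the spread between these animals only. edgeR 4.0.16 and DESeq2 1.42.0 on recovered reads, another pseudocount (0.1), other filters, a B cell covariate, the run of animal numbers and leaving out each animal were alternatives. Leaving out libraries that stood apart and a GC correction were chosen after seeing the data. All 9 genes are named in each comparison, from every other list at most 4 called genes by smallest p, and the 10 genes most like the CD3 genes. A few list genes are not reported here, and the list counts include them. Deposited gene starts equalled GRCm38 starts for 0 of the 9 genes, so deposited positions and RefSeq promoter positions are not on 1 scale. Exon lengths and GC are from GENCODE M21 (GRCm38). Proteins, and promoters of Cd4 and Cd8b1, were not used here.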

Additional observations from a re-analysis of the deposited data

How the results depend on the processing

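Number of the 9 genes called, by setting. From p21 to SW males it was 2, and it became 0 when the fit held the compared groups alone, 6 with the B cell covariate, 4 without DW females 82 and 83, and 0 without these and p21 male 53 and SW male 84. It ran from 1 to 3 when single animals were left out. From p21 to SW females it was 0, and it became 5 with the B cell covariate and 1 (Foxp3) without the 4 libraries. From p21 to DW males it was 5, became 8 with the B cell covariate and ran from 2 to 6 when single animals were left out. From p21 to DW females it was 1, became 5 with the B cell covariate and 0 with edgeR and DESeq2 size factors, with only the compared groups, without DW females 82 and 83 and without the 4 libraries, and ran from 0 to 4 when single animals were left out. Between the sexes in DW animals and in the DW interaction of sex and age it was 0, and DESeq2 made it 1 in each. Leaving out single animals gave 0 to 1 genes for DW against SW females (Cd3d without DW female 77) and for the sexes in DW animals. The share of all genes called moved too: from 11.9% to 5.14% (compared groups alone) and 18.6% (without 82 and 83) for SW males, and from 12.1% to 3.09% and 8.7% for DW females. The causes were not tested. In the remaining settings these counts stayed within 1.5 times, and no called gene changed direction in any of its 36 settings. None of the 9 genes was called for weaning with the run of animal numbers as a covariate. Over the 13 settings for weaning, all genes called ran from 29 to 114 in males, 1 to 290 in females and 195 to 586 averaged over the sexes.

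No paired analysis was possible because the groups share no animal numbers. With 4 animals a group the 95% intervals were wide, for example -1.32 to -0.16 for Lef1 from p21 to DW females. Each of the 9 genes had at least 518 recovered reads in every library.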

Other observations

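The authors' deposited table names its p-value columns as adjusted, but their values look like unadjusted p-values, so counts from them cannot be set against the adjusted calls above. From p21 to SW males the authors' deposited table has 7 of the 9 genes under 0.05, and from p21 to DW males 9 of 9. For DW against SW females it has 1, Cd3d, at 0.00689 with a log2 fold change of 0.614. In the authors' deposited table that column for DW against SW males holds 16104 distinct values among 16108, with 49.6% over 0.5 and 1223 genes under 0.05. When that column was itself adjusted by Benjamini-Hochberg, 114 genes were under 0.05, the number DESeq2 gave here on the recovered reads. Treated in the same way, the authors' deposited table left Cd3e and Cd3g from p21 to SW males, Cd3e, Cd3d, Cd3g, Cd8a, Cd8b1 and Foxp3 from p21 to DW males, Cd3e from p21 to DW females, and 0 of the 9 genes for weaning in either sex.

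Dntt, the nucleotide-adding enzyme of lymphocyte precursors, was at most 1.14 in p21 males and fell in SW males (log2 change -0.37, limma adjusted p 0.0357), which was -0.28 and not called without the 4 libraries that stood apart. Cd1d1, which presents lipids to NKT cells and is also made by adipocytes, rose by 0.74 in SW males (limma adjusted p 0.00161), 0.71 in DW males (limma adjusted p 0.00211) and 0.80 in DW females (limma adjusted p 0.000723). Of 10 dendritic cell genes, 1 rose in SW and in DW males (Cd209a), 4 in SW and in DW females (Cd209a, Bst2, Xcr1 and Clec9a), and 0 fell. Of all genes, 6.9% and 8.86% rose in SW and DW males, and 7.39% and 5.95% in SW and DW females. The male count of 1 in 10 is near these shares. In SW and DW males Flt3 changed by -0.62 and -0.60 and Ccr9 by -0.60 and -0.65, not called. Without the 4 libraries Cd209a was called only in SW females, and Clec9a was 0.50 and not called in DW females.

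The highest or lowest animal of each group was also set against the other 3 for each of the 9 genes. In 0 of 54 sets did the gap to the nearest animal pass Dixon's 95% critical share of the range, where chance gives about 1 in 20.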
